A study of Rattus norvegicus with 24 samples.

Results

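Small RNA in the injured cortex was compared with small RNA in the injured thalamus of the same rats. The comparison used 12 of the 24 libraries of the study, namely the perilesional cortex of 6 rats with traumatic brain injury (TBI) and the ipsilateral thalamus of the same 6 rats, paired by the rat number in the sample titles. The 12 libraries of 6 sham-operated rats served to ask which regional differences were also there without the injury. All rats were adult male Sprague-Dawley rats and tissue was taken 3 months after surgery. TBI rats had a lateral fluid-percussion injury, delivered through an opening in the skull, and sham rats were operated without it. The study chose its TBI rats for a chronic inflammatory rim seen by imaging around the cortical lesion, so they stand for rats with such a rim. Each library came from bulk tissue dissected from a 3-mm coronal slice, with RNA of the pieces of a region pooled, and fewer cells of a type and less RNA per cell cannot be told apart in it.

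MicroRNAs (miRNAs) are short RNAs that guide a silencing complex to messenger RNAs, mainly by pairing of the seed, bases 2 to 8 from the 5′ end. Many are made in few cell types, so their levels in bulk tissue reflect both regulation and cell makeup. Cortex holds densely packed projection neurons, whereas thalamus is crossed by myelinated fibre tracts and lies against the ventricles, which are lined by ependyma and hold the choroid plexus. Transfer RNAs (tRNAs) are also cut into fragments, and a tRNA feature here counts the reads of 1 annotated tRNA gene.

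The miRNAs on which the comparison turned were shown as mature sequences, taken from RefSeq for the rat assembly GRCr8, 5′ to 3′, with the seed in capitals. The first set was higher in TBI cortex, and in it miR-132-3p and miR-212-3p share a seed, being neighbouring products of 1 transcript on the plus strand at chr10:60521771-60522112.
miR-132-3p: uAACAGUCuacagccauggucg
miR-212-3p: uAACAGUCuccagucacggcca
miR-128-3p: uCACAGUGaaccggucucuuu
miR-218a-5p: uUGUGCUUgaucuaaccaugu
miR-139-5p: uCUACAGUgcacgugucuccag
The second set was higher in TBI thalamus. It begins with the myelin-associated miR-219a and miR-338, and goes on to products of the Htr2c introns (plus strand, chrX:115488778-115642046) and to miR-375-3p. It ends with miR-34b-5p and miR-34c-5p. The seed of these is also that of miR-34a-5p, which is shown after them and was not called.
miR-219a-2-3p: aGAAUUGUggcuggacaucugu
miR-219a-5p: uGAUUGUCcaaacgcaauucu
miR-338-3p: uCCAGCAUcagugauuuuguuga
miR-338-5p: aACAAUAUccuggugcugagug
miR-1298: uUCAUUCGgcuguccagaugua
miR-448-3p: uUGCAUAUguaggauguccca
miR-375-3p: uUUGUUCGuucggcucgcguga
miR-34b-5p: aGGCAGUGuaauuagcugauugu
miR-34c-5p: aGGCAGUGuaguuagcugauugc
miR-34a-5p: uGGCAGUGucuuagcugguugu
The third set was the miR-181 family, whose members share a seed and did not share a direction.
miR-181a-5p: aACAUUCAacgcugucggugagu
miR-181b-5p: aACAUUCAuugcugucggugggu
miR-181c-5p: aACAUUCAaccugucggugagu
miR-181d-5p: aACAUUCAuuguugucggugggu

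The libraries held 538194 to 3510576 miRNA reads in TBI thalamus and 757810 to 2592699 in TBI cortex, and 523298 to 4139901 in the sham libraries. Along the first principal component of log2 CPM (34.63% of the variance), the 12 cortical libraries lay on one side and the 12 thalamic libraries on the other as labelled. The regional labels were checked only in this way. In TBI rats, miR-128-3p took 18.8% ± 1.39 (SD, n = 6) of miRNA reads in cortex and 11.5% ± 2.94 (SD, n = 6) in thalamus. Levels below are CPM, the reads of a miRNA relative to all miRNA reads of a library, after scaling by trimmed mean of M-values (TMM) over all 24 libraries, for which the factors were lower in cortex than in thalamus in 6 of 6 TBI rats. Differences are log2 values of cortex minus thalamus. Their median over all 407 miRNAs tested was 0.05 in TBI rats, and scaling by library size alone moved it by -0.17, to -0.12. In sham rats the same change of scaling moved the median from -0.002 to -0.44. Small differences are to be read against these shifts.

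The thalamic library of TBI rat 45 stood apart from the other 5. The summed level of 10 arms on a list of choroid plexus and ependymal miRNAs (miR-204, miR-211, miR-448, miR-1298 and miR-34b/34c) was 31615 CPM there, against 2360.4 to 5224 CPM in the other TBI thalamus libraries. The TBI cortex library of that rat was also the highest of its group for this list, at 4543 CPM. Among sham rats, the thalamus of rats 34 and 50 reached 11822 and 11612 CPM on this list. A further library, the thalamus of sham rat 55, had the fewest miRNA reads of the 24 and the lowest second principal component (-18.2). Among the TBI libraries, the thalamus of rat 56 had the fewest miRNA reads and the lowest second principal component (-11.5). Values without rat 45 or 55 are given beside the results below where their libraries lie apart or change a count.

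Of the 407 miRNAs tested, 131 differed between injured cortex and injured thalamus (edgeR quasi-likelihood test, adjusted p below 0.05; 32.2%). Of these, 71 were higher in cortex (17.4% of all tested) and 60 in thalamus (14.7%). In 112 of the 131 the difference had the same direction in 6 of 6 TBI rats. For 48 miRNAs (11.8% of all tested) the 6 cortical and the 6 thalamic levels did not overlap, 28 of them with cortex above and 20 with thalamus above. The split moved with the scaling, to 46 higher in cortex and 83 in thalamus when only library size was used, and to 62 and 88 when the 12 TBI libraries were fitted alone. A difference of at least 1 on the log2 scale was found in 65 called miRNAs (16% of all tested), 34 higher in cortex and 31 in thalamus, and 61 of these 65 were also called with library size scaling.

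Most regional differences of the injured rats were also there in sham rats. In sham rats 31.4% of miRNAs were called, 68 higher in cortex (16.7%) and 60 in thalamus (14.7%), a split that became 27 and 158 with library size scaling. The lists shared 94 miRNAs in the same direction (71.8% of the TBI list and 73.4% of the sham list), 49 of them higher in cortex and 45 in thalamus, and none was called in opposite directions. Of the 65 with a log2 difference of at least 1 in TBI rats, 58 were called in sham rats too. Of the 131 called in TBI rats, 130 had the same sign in sham rats. The exception was miR-582-5p, at 0.61 in TBI and -0.05 in sham.

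**Figure D1:**
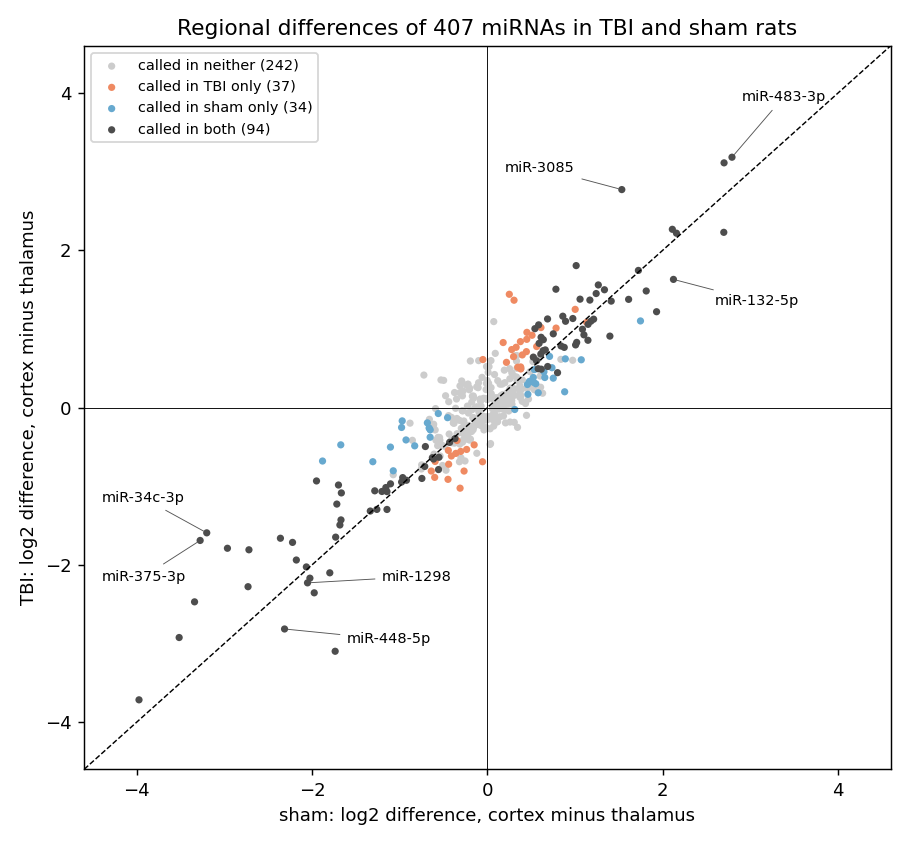
Log2 difference between cortex and thalamus of 407 miRNAs in sham rats (x axis) and TBI rats (y axis), 1 point per miRNA, with the dashed line marking equal differences. The 94 miRNAs called in both groups lie in the lower left and upper right quadrants, and miR-375-3p and miR-34c-3p lie above the line at the left, with smaller differences in TBI than in sham.

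Neuron-enriched miRNAs were higher in the injured cortex. Of 23 arms on this list, 16 were higher in cortex (69.6%, beside 17.4% of all miRNAs) and none in thalamus (beside 14.7%). The median difference was 0.77, beside 0.05 for all miRNAs. With library size scaling 11 were higher in cortex and 1 in thalamus, and without rat 45 the list had 12 called arms and a median of 0.63. In sham rats 10 of the 23 arms were higher in cortex (beside 16.7% of all miRNAs) and none in thalamus. All 10 were also called in TBI rats, and the sham median was 0.52. The most abundant miRNA, miR-128-3p, which dampens neuronal excitability, stood at 166884 to 226823 CPM (median 189194) in TBI cortex and 68945 to 165207 CPM (median 102669) in TBI thalamus. Every cortical library was above every thalamic one, and the difference was 0.91 ± 0.20 (SE, adjusted p = 0.00162), against 1.40 in sham rats. For miR-218a-5p, which is enriched in neurons and made from introns of the Slit genes, levels were 4209.6 to 8607 CPM (median 7111) in TBI cortex and 1479.8 to 3762 CPM (median 2679) in TBI thalamus. Again the regions did not overlap, with a difference of 1.37 ± 0.13 (SE, adjusted p = 3.15e-07). The neuronal miR-124-3p, which represses non-neuronal transcripts, had 5899 to 10500.5 CPM (median 8135) in TBI cortex and 3167 to 5645 CPM (median 5102) in TBI thalamus. Its regions did not overlap either, and its difference was 0.77 ± 0.16 (SE, adjusted p = 7.54e-04) in TBI and 0.33 ± 0.16 (SE, adjusted p = 0.120) in sham.

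The second most abundant miRNA, miR-9a-5p, which is made in neural progenitors and neurons, differed by 0.52 ± 0.13 (SE, adjusted p = 0.00323) with overlapping levels. miR-138-5p, which acts at dendritic spines, differed by 1.05 ± 0.15 (SE, adjusted p = 2.94e-05) and did not overlap. The low miR-128-1-5p, the other arm of a miR-128 hairpin, had 11.5 to 33.6 CPM (median 18.4) in TBI cortex and 1.62 to 9.84 CPM (median 4.22) in TBI thalamus. It had the largest difference on the list, 2.22 ± 0.31 (SE, adjusted p = 1.67e-05), and 2.16 in sham. Arms of the list that were not called included miR-129-5p at -0.02 and miR-7a-5p, which is also abundant in neuroendocrine cells, at -0.47. The third most abundant miRNA, miR-26a-5p, is on no list. It did not pass the test in TBI, at -0.02 ± 0.12 (SE, adjusted p = 0.877), and was higher in cortex in sham, at 0.31 ± 0.12 (SE, adjusted p = 0.0463). That sham value is smaller than the shift of the sham median with library size scaling, from -0.002 to -0.44.

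The activity-regulated miR-132 and miR-212, which are transcribed together downstream of CREB, were higher in the injured cortex for each of their 4 arms. miR-132-5p stood at 1073 to 1286 CPM (median 1113) in TBI cortex and 298 to 448.8 CPM (median 381.2) in TBI thalamus. All 6 cortical libraries were above all thalamic libraries, by 1.63 ± 0.14 (SE, adjusted p = 1.70e-07). In sham rats its levels were 1748 to 2553 CPM (median 1966) in cortex and 423 to 543.3 CPM (median 459) in thalamus, and the difference was 2.12. miR-132-3p had 1746 to 2899 CPM (median 2239) in TBI cortex and 698 to 1279.7 CPM (median 794) in TBI thalamus and a difference of 1.38 ± 0.14 (SE, adjusted p = 8.26e-07). The remaining arms differed by 1.22 for miR-212-5p and 1.12 for miR-212-3p. Over the 7 arms of the activity list, 4 were higher in cortex (57.1%, beside 17.4% of all miRNAs) and none in thalamus (median 1.12). With library size scaling 1 arm was called higher in thalamus. In sham rats 5 of the 7 arms were higher in cortex (beside 16.7% of all miRNAs), 4 of them also called in TBI rats, and the sham median was 1.61. miR-134-5p, a dendritic miRNA that also belongs to the Dlk1-Dio3 cluster, did not pass at -0.46.

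Of the 10 largest cortical differences among miRNAs with the same direction in 6 of 6 TBI rats and a mean of at least 10 CPM, the first were both arms of miR-483, which lies in an intron of the growth factor gene Igf2. miR-483-3p had 26.6 to 81.9 CPM (median 36.4) in TBI cortex and 0.405 to 39.9 CPM (median 2.87) in TBI thalamus. Its difference was 3.18 ± 0.47 (SE, adjusted p = 3.38e-05), and 4.02 (adjusted p = 2.08e-06) without rat 45, whose thalamic library held the highest thalamic level of the group. miR-483-5p differed by 3.11 ± 0.45 (SE, adjusted p = 2.94e-05), or 3.77 (adjusted p = 2.31e-05) without rat 45. miR-3085, whose levels were 24.8 to 49.5 CPM (median 36.9) in TBI cortex and 0.903 to 9.79 CPM (median 5.37) in TBI thalamus, did not overlap between regions and differed by 2.77 ± 0.32 (SE, adjusted p = 2.43e-06).

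Next came miR-214-3p, which with miR-199a is made from the antisense transcript of Dnm3 in mesenchymal tissue. Its levels were 6.44 to 21.4 CPM (median 14.1) in TBI cortex and 0.316 to 17.3 CPM (median 1.66) in TBI thalamus. The difference was 2.23 ± 0.53 (SE, adjusted p = 0.00259), or 3.15 (adjusted p = 2.48e-04) without rat 45. The muscle-enriched miR-133a-3p had 53.6 to 103 CPM (median 98.4) in TBI cortex and 11.8 to 59.1 CPM (median 21.1) in TBI thalamus and differed by 1.81 ± 0.28 (SE, adjusted p = 5.63e-05), or 1.93 (adjusted p = 4.29e-05) without rat 45. Its partner on the same transcript, miR-1-3p, differed by 1.16, was higher in cortex in 5 of 6 TBI rats and was named after its value was seen.

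miR-139-3p and miR-139-5p, from an intron of the cyclic nucleotide phosphodiesterase gene Pde2a, moved together. miR-139-3p stood at 189 to 582 CPM (median 292) in TBI cortex and 59.4 to 240.0 CPM (median 89.7) in TBI thalamus and differed by 1.74 ± 0.21 (SE, adjusted p = 5.42e-06). The overlap came from the thalamus of rat 56, at 240.0 CPM against at most 114 in the other thalamic libraries. miR-139-5p, shown among the sequences above and named after its value was seen, differed by 1.50 ± 0.16 (SE, adjusted p = 8.87e-07). miR-935, which lies within Cacng8, the gene of an AMPA receptor partner (strand not checked), had 54.8 to 137.8 CPM (median 77.4) in TBI cortex and 17.01 to 50.8 CPM (median 27.7) in TBI thalamus. It did not overlap and differed by 1.56 ± 0.21 (SE, adjusted p = 1.50e-05). miR-708-5p, from an intron of the teneurin gene Tenm4, had 267 to 410.1 CPM (median 338.7) in TBI cortex and 62.9 to 153.03 CPM (median 135.1) in TBI thalamus, also without overlap, and differed by 1.51 ± 0.21 (SE, adjusted p = 1.73e-05) in TBI and 0.78 ± 0.21 (SE, adjusted p = 0.00703) in sham.

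**Figure D2:**
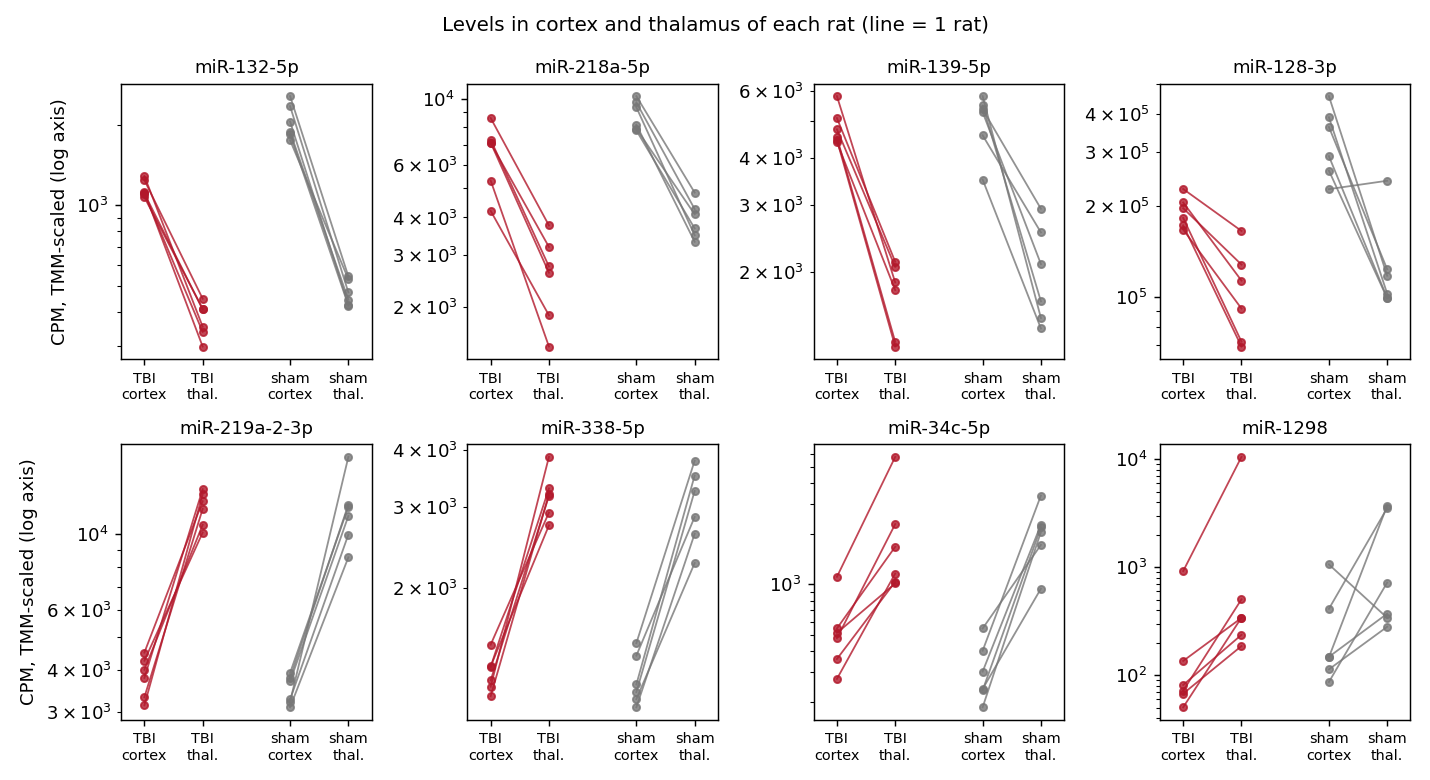
CPM on a log axis for 8 miRNAs in each rat, with 1 line joining the cortex and the thalamus of a rat, TBI rats in red and sham rats in grey. The upper 4 miRNAs were higher in cortex and the lower 4 in thalamus in every TBI rat, and for miR-1298 the thalamus of TBI rat 45 stands far above the others, at 10514 CPM against at most 504.

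Oligodendrocyte miRNAs were higher in the injured thalamus. Of 5 arms of miR-219a and miR-338, which drive oligodendrocyte maturation and myelination, 4 were higher in thalamus (80%, beside 14.7% of all miRNAs). None was higher in cortex, and the median was -1.32. miR-219a-2-3p stood at 3144 to 4494 CPM (median 3894) in TBI cortex and 10129 to 13579 CPM (median 12201) in TBI thalamus. The regions did not overlap, and the difference was -1.65 ± 0.15 (SE, adjusted p = 2.34e-07), with -1.73 in sham. miR-338-5p had 1156 to 1499 CPM (median 1296) in TBI cortex and 2736 to 3864 CPM (median 3188) in TBI thalamus, also without overlap, and differed by -1.30 ± 0.14 (SE, adjusted p = 8.87e-07). miR-338-3p and miR-219a-5p differed by -1.32 and -1.43. In sham rats the same 4 arms were called, at -1.26 for miR-338-5p and -1.34 for miR-338-3p. The median of this list was -1.37 without rat 45.

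Choroid plexus and ependymal miRNAs were also higher in the injured thalamus. Of 10 arms tested on that list, 8 were higher in thalamus (80%, beside 14.7% of all miRNAs) and none in cortex. The median was -1.75, and 5 further arms were too low to test. Without rat 45, 7 were called and the median was -1.77. In sham rats 7 of the 10 arms were higher in thalamus (beside 14.7% of all miRNAs) and none in cortex. All 7 were also called in TBI rats, and the sham median was -2.14. The summed level of the list had a median of 1861 CPM in TBI cortex and 3746 in TBI thalamus, and 1932 and 4678 CPM in sham. How much ventricular lining was taken with a piece of thalamus was not measured, and its part in these differences was not tested. miR-204-5p, the most abundant of the list and a choroid plexus miRNA made from Trpm3, had 929 to 2170.3 CPM (median 1118) in TBI cortex and 947 to 13636 CPM (median 1751) in TBI thalamus. It did not pass the test, at -0.78 ± 0.34 (SE, adjusted p = 0.0901), and neither did miR-211-5p at 0.59 ± 0.40 (SE, adjusted p = 0.277).

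The 5 tested miRNAs placed by position in Htr2c, the serotonin 2C receptor gene that is strongly transcribed in choroid plexus, were higher in thalamus, and so was miR-764-5p, the other arm of the miR-764 hairpin. miR-1298 had 50.4 to 920.5 CPM (median 76.4) in TBI cortex and 186 to 10514 CPM (median 339.8) in TBI thalamus. The thalamus was higher in 6 of 6 rats, the highest value of each region was from rat 45, and the difference was -2.23 ± 0.52 (SE, adjusted p = 0.00246). Without rat 45 it was -2.07 (adjusted p = 0.00864). miR-448-3p stood at 4.00 to 53.6 CPM (median 8.77) in TBI cortex and 26.4 to 602 CPM (median 39.1) in TBI thalamus and differed by -2.36 ± 0.45 (SE, adjusted p = 4.11e-04), or by -2.13 (adjusted p = 0.00260) without rat 45.

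miR-448-5p was scarcer, at 0.801 to 3.06 CPM (median 1.86) in TBI cortex and 3.93 to 42.8 CPM (median 10.6) in TBI thalamus. Its regions did not overlap and it differed by -2.82 ± 0.37 (SE, adjusted p = 1.25e-05), or -2.64 (adjusted p = 8.34e-05) without rat 45. miR-3552 had 0 to 6.89 CPM (median 2.08) in TBI cortex and 3.65 to 41.4 CPM (median 10.2) in TBI thalamus and differed by -2.47 ± 0.43 (SE, adjusted p = 1.88e-04), or -2.52 (adjusted p = 0.00139) without rat 45. miR-764-3p and miR-764-5p, both named after their values were seen, reached at most 0.916 and 1.60 CPM in cortex. A count of 0 in the shallowest cortical library does not exclude such levels. They had 0 to 15.6 CPM (median 3.95) and 3.16 to 15.8 CPM (median 5.74) in thalamus. In sham rats the differences were -2.05 for miR-1298 and -1.98 for miR-448-3p, although sham rat 26 had the opposite direction for both, with 1059.8 CPM of miR-1298 in cortex and 339.3 in thalamus.

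The miR-34b/34c transcript, which is active in multiciliated cells such as ependyma, was higher in the injured thalamus for each of its 4 arms. miR-34c-5p had 273 to 1109 CPM (median 494.9) in TBI cortex and 1012 to 5755 CPM (median 1418) in TBI thalamus. Its difference was -1.81 ± 0.23 (SE, adjusted p = 7.61e-06) in TBI and -2.72 ± 0.24 (SE, adjusted p = 6.11e-08) in sham. miR-34b-5p differed by -1.71 ± 0.19 (SE, adjusted p = 9.68e-07) and miR-34b-3p by -1.79 ± 0.28 (SE, adjusted p = 6.40e-05). Without rat 45 the TBI difference was -1.81 (adjusted p = 3.07e-05) for miR-34c-5p, -1.76 (adjusted p = 3.32e-04) for miR-34b-3p and -1.48 (adjusted p = 0.00703) for miR-34c-3p. miR-34a-5p, with the same seed as miR-34b-5p and miR-34c-5p but from a gene that is active in many tissues, stood at 123 to 234 CPM (median 163) in TBI cortex and 70.8 to 187 CPM (median 144.9) in TBI thalamus and did not pass, at 0.29 ± 0.18 (SE, adjusted p = 0.241).

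Other miRNAs higher in thalamus are not on the choroid plexus and ependymal list. miR-298-5p, from the imprinted Gnas locus, had 18.9 to 50.4 CPM (median 34.2) in TBI cortex and 101 to 189 CPM (median 123) in TBI thalamus. It did not overlap between regions and differed by -1.94 ± 0.18 (SE, adjusted p = 3.08e-07). miR-217-5p, which is best known from pancreas, had 1.53 to 10.4 CPM (median 3.87) in TBI cortex and 15.0 to 27.5 CPM (median 16.2) in TBI thalamus, without overlap, and differed by -2.03 ± 0.31 (SE, adjusted p = 4.26e-05). miR-666-5p of the imprinted Dlk1-Dio3 cluster had 1.44 to 4.59 CPM (median 2.81) in TBI cortex and 8.76 to 25.6 CPM (median 13.1) in TBI thalamus, again without overlap, and differed by -2.17 ± 0.43 (SE, adjusted p = 6.55e-04). In sham rats these 3 differed by -2.18, -2.07 and -2.02.

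**Figure D3:**
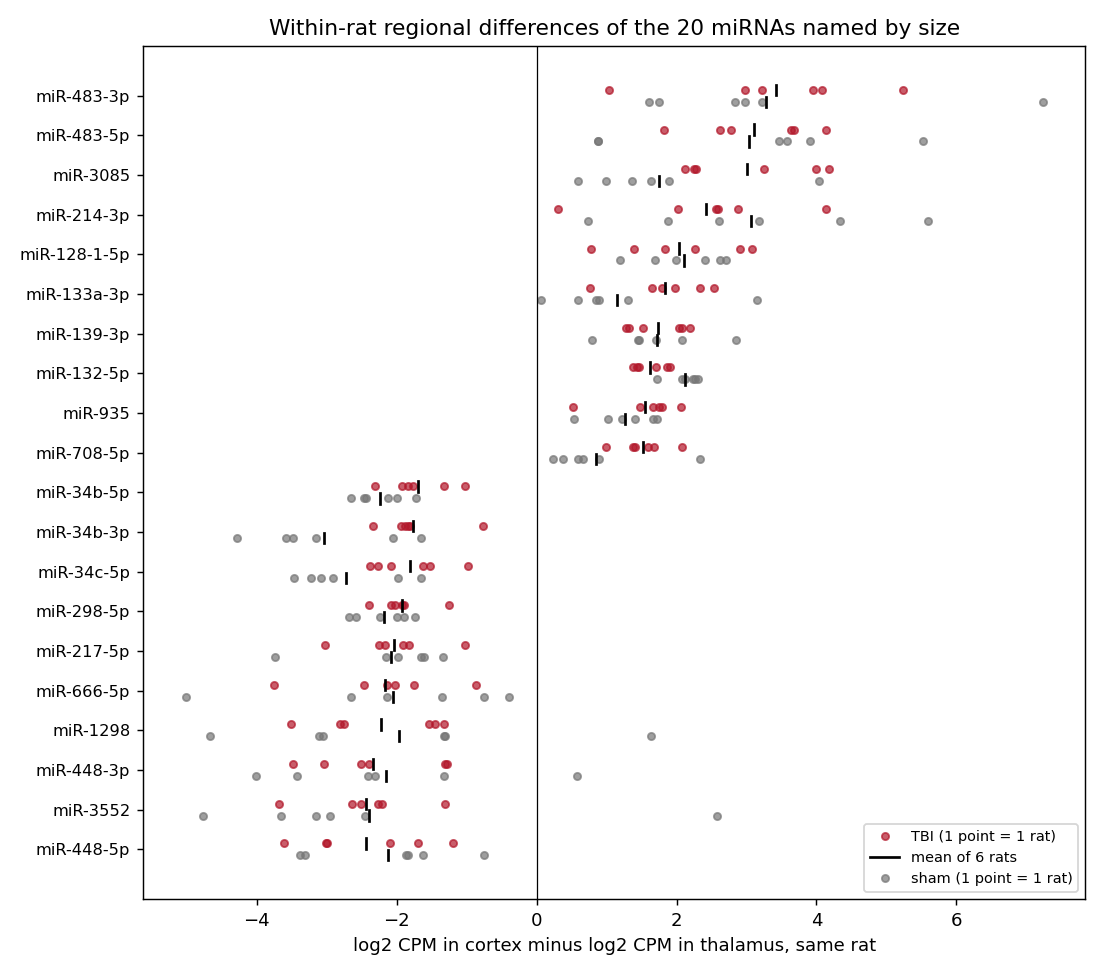
Difference between log2 CPM in cortex and in thalamus of the same rat (x axis) for the 10 largest differences in each direction, TBI rats in red and sham rats in grey, with a bar at the mean of 6 rats. All red points lie on one side of 0 for each miRNA, as the choice of these 20 required, and among sham points rat 26 lies on the other side for miR-1298 and miR-448-3p and rat 55 for miR-3552.

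Leukocyte, microglial and inflammation-induced miRNAs included members higher in either region. Of 12 arms, 2 were higher in cortex (16.7%, beside 17.4% of all) and 1 in thalamus (8.33%, beside 14.7%), with a median of 0.01, and with library size scaling 1 was higher in cortex and 2 in thalamus. miR-21-5p, induced in reactive astrocytes and inflammation, stood at 3958 to 5868 CPM (median 4666) in TBI cortex and 6799 to 13107 CPM (median 10747) in TBI thalamus. All thalamic libraries were above all cortical ones. The difference was -1.07 ± 0.16 (SE, adjusted p = 4.26e-05) in TBI and -1.15 in sham. miR-146b-5p, a feedback inhibitor of Toll-like receptor signalling, had 4485 to 5869 CPM (median 5015) in TBI cortex and 1940.5 to 4027 CPM (median 2890.1) in TBI thalamus. It was higher in cortex without overlap, by 0.86 ± 0.19 (SE, adjusted p = 0.00195). Its relative miR-146a-5p, which has the same seed, did not pass at -0.18 ± 0.17 (SE, adjusted p = 0.448), and miR-155-5p, induced in activated microglia, did not at -0.58 ± 0.30 (SE, adjusted p = 0.144). The neutrophil and myeloid miR-223-3p differed by 1.08 ± 0.40 (SE, adjusted p = 0.0427), a call kept in 5 of 12 fits that left out 1 rat and at 1.53 (adjusted p = 0.00718) without rat 45, and the pan-leukocyte miR-142-3p did not pass at -0.62 ± 0.26 (SE, adjusted p = 0.0831).

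Among 9 vascular and red cell arms, 4 were higher in cortex (44.4%, beside 17.4% of all miRNAs) and none in thalamus (beside 14.7%). The median was 0.37, and with library size scaling 1 was called. The smooth muscle miRNAs miR-143-5p and miR-145-5p differed by 0.93 and 0.60, and the red cell miR-451-5p by 0.73. miR-145-3p was also called, at 0.44, whereas miR-143-3p did not pass at 0.37 (adjusted p = 0.0782). Neither arm of miR-144 passed, at 0.31 for miR-144-5p (adjusted p = 0.612) and 0.10 for miR-144-3p (adjusted p = 0.862). The endothelial miR-126a-3p did not pass, at -0.15 ± 0.15 (SE, adjusted p = 0.459). Without rat 45, 2 arms of this list were called. In sham rats 5 of the 9 arms were higher in cortex (beside 16.7% of all miRNAs), 4 of them also called in TBI rats, and the sham median was 0.56.

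The Dlk1-Dio3 imprinted cluster, a large group of miRNAs made from the maternal chromosome and abundant in neurons, had 72 arms tested. Of these, 1 was higher in cortex (1.39%) and 11 in thalamus (15.3%), beside 17.4% and 14.7% of all miRNAs, and the median was -0.11. With library size scaling 19 were higher in thalamus, and without rat 45, 16 arms were called in all. miR-433-3p, the most abundant of the called arms, had 2106 to 7121 CPM (median 3233) in TBI cortex and 4483 to 14243 CPM (median 6059) in TBI thalamus and differed by -0.90 ± 0.18 (SE, adjusted p = 7.54e-04). miR-758-3p differed by -1.02 ± 0.14 (SE, adjusted p = 2.31e-05) and miR-380-5p by -0.97 ± 0.15 (SE, adjusted p = 6.37e-05), and the arm that was higher in cortex was miR-299a-5p at 1.13 ± 0.32 (SE, adjusted p = 0.00948). In sham rats 11 arms were higher in thalamus as well and 1 in cortex.

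The remaining lists were near or below the share over all miRNAs (17.4% higher in cortex and 14.7% in thalamus), apart from the small epithelial, normaliser and PCR lists. Of 18 let-7 and miR-98 arms, which oppose the growth programme of precursors, 2 were higher in thalamus (11.1%), among them let-7i-5p at -0.53 ± 0.15 (SE, adjusted p = 0.00852) in TBI and -0.24 in sham. Of 14 arms of the proliferation-linked miR-17-92 cluster and its paralogs, 2 were higher in thalamus (14.3%), miR-92a-3p at -0.42 and miR-25-3p at -0.50. Neither arm of the Hox-embedded miR-10a and miR-10b, markers of hindbrain and spinal cord, was called. Of 5 epithelial, sensory and neuroendocrine arms, miR-200a-3p was higher in cortex by 1.37 ± 0.41 (SE, adjusted p = 0.0151) and miR-375-3p higher in thalamus. Without rat 45 miR-200a-3p was at 0.91 (adjusted p = 0.203). Of the 4 miRNAs that the study used as PCR normalisers, miR-330-5p was higher in thalamus, at -0.64 ± 0.15 (SE, adjusted p = 0.00224). Of the 12 that it picked for PCR on these rats, 3 were higher in cortex and 3 in thalamus (25% each), a list that is not independent of these samples.

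**Figure D4:**
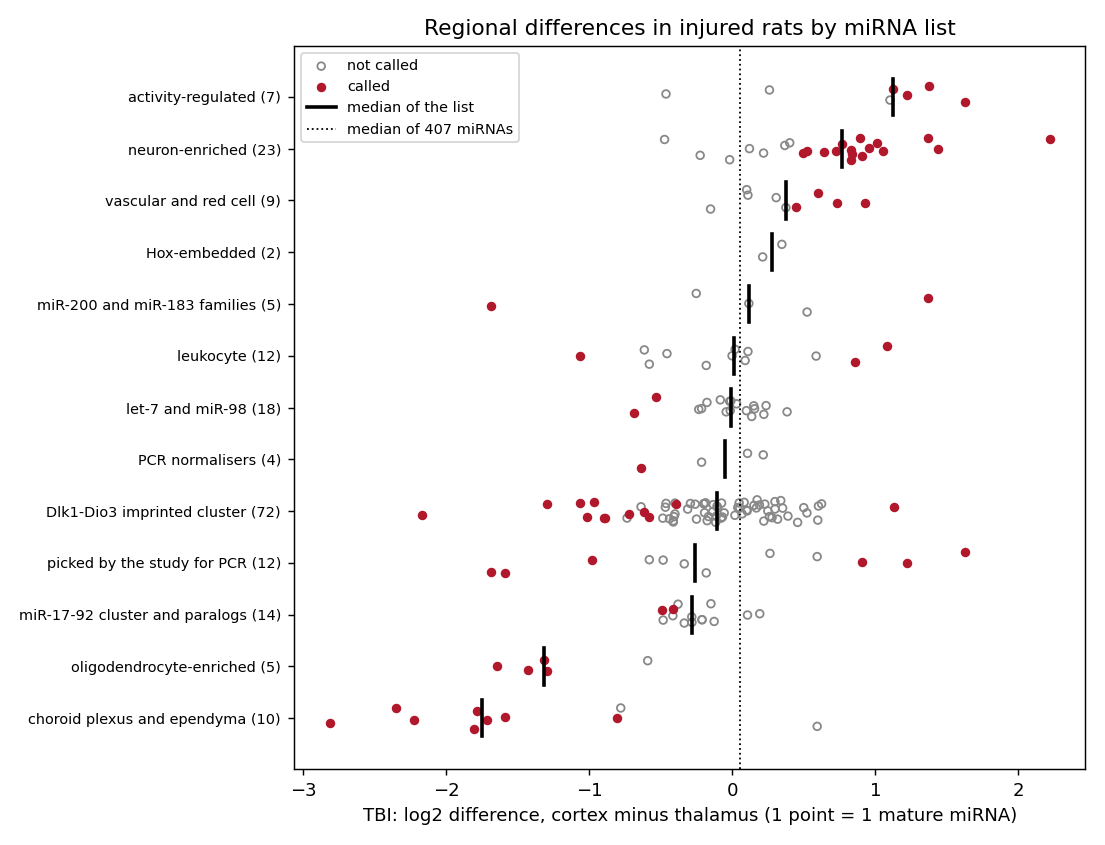
Log2 difference between TBI cortex and TBI thalamus (x axis) for the tested arms of 13 lists, 1 point per mature miRNA, filled where called, with a bar at the median of a list and a dotted line at the median of all miRNAs (0.05). The neuron-enriched and activity-regulated lists lie to the right, with medians of 0.77 and 1.12, and the oligodendrocyte and choroid lists to the left, at -1.32 and -1.75.

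Among pairs of a 5p and a 3p arm of the same miRNA, both arms were called in 30, a single arm in 28 and neither in 87. In the 30 pairs with both called, the directions were the same. Where a single arm was called, the sign of the other was opposite in 5 of 28, as for let-7i-5p at -0.53 and let-7i-3p at 0.15. Called miRNAs with the same seed did not always have the same direction. In the miR-181 family, which was chosen after its values were seen and whose sequences differ only outside the seed, miR-181a-5p, a regulator of receptor signalling in lymphocytes and neurons, stood at 17943 to 28300.4 CPM (median 22191) in TBI cortex and 28540.4 to 44013 CPM (median 33827) in TBI thalamus. It was higher in thalamus, with a difference of -0.63 ± 0.12 (SE, adjusted p = 4.54e-04), and so was miR-181b-5p, at -0.95 ± 0.13 (SE, adjusted p = 1.73e-05). miR-181c-5p, made from another chromosome together with miR-181d, had 151 to 226 CPM (median 190.1) in TBI cortex and 116 to 143.4 CPM (median 132.2) in TBI thalamus and was higher in cortex, by 0.49 ± 0.15 (SE, adjusted p = 0.0153). The call for miR-181c-5p was kept in 6 of 12 fits that left out 1 rat, and miR-181d-5p did not pass, at 0.15 ± 0.14 (SE, adjusted p = 0.459). The mature sequences are near-identical, and reads of 1 member may have been counted for another.

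Whether the regional difference itself changed with the injury was asked by the difference between TBI and sham. No miRNA passed an adjusted p of 0.05 in edgeR, with a smallest adjusted p of 0.419, and 19 had an unadjusted p below 0.05 (4.67% of 407). DESeq2 also called none and had 21 at an unadjusted p below 0.05. Over the miRNAs called for the mean regional difference of both groups, the difference was smaller in TBI rats for 97 (49.5%) and larger for 99, beside 214 of all 407 (52.6%) that were smaller. Their median size was 0.77 in TBI and 0.69 in sham, and the median change was 0.00. With library size scaling 43 miRNAs had an unadjusted p below 0.05 in edgeR. The share that was smaller rose to 71.7%, so shrinkage as a whole depended on the scaling.

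The smallest p belonged to miR-375-3p, a miRNA of neuroendocrine and epithelial cells. In TBI rats it had 19.2 to 96.5 CPM (median 32.5) in TBI cortex and 58.7 to 234 CPM (median 112) in TBI thalamus. In sham rats it had 6.87 to 17.4 CPM (median 11.8) in cortex and 59.4 to 215 CPM (median 118) in thalamus. The cortical median was higher in TBI than in sham and the thalamic medians were close, and the regional difference was -1.69 in TBI and -3.28 in sham, a TBI minus sham value of 1.59 ± 0.41 (SE, unadjusted p = 0.00103, adjusted p = 0.419). It passed where no low-count filter was used (adjusted p = 0.0455) and in no other fit that was run. Without rat 45 the difference in TBI was -1.94 (adjusted p = 8.34e-05) and the TBI minus sham value 1.40 (unadjusted p = 0.00444).

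The arms of miR-34b/34c also had positive TBI minus sham values, without passing. miR-34c-5p had a TBI minus sham value of 0.91 ± 0.32 (SE, unadjusted p = 0.0104, adjusted p = 0.755), with 185 to 546 CPM (median 269.8) in sham cortex and 943 to 3387 CPM (median 2118) in sham thalamus. miR-34c-3p had 1.44 to 12.3 CPM (median 8.17) in TBI cortex and 12.00 to 68.1 CPM (median 17.7) in TBI thalamus and had a TBI minus sham value of 1.61 (unadjusted p = 0.0111). miR-34b-3p had a TBI minus sham value of 1.18 (unadjusted p = 0.0144). These arms come from 1 transcript and are not independent.

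miR-31a-5p had 46.4 to 134.7 CPM (median 98.2) in TBI cortex and 66.9 to 268 CPM (median 189.8) in TBI thalamus. Its difference was -0.93 in TBI and -1.95 in sham, a TBI minus sham value of 1.02 ± 0.36 (SE, unadjusted p = 0.0107, adjusted p = 0.755). miR-190a-5p, from an intron of the talin gene Tln2, had 9.93 to 24.97 CPM (median 15.9) in TBI cortex and 6.81 to 24.9 CPM (median 11.2) in TBI thalamus. Its difference was 0.41 in TBI and -0.72 in sham, neither of which passed, with a TBI minus sham value of 1.14 ± 0.41 (SE, unadjusted p = 0.0119, adjusted p = 0.755). miR-3085 was the one of the 6 with a larger regional difference in TBI than in sham, 2.77 against 1.53, a TBI minus sham value of 1.24 ± 0.45 (SE, unadjusted p = 0.0129, adjusted p = 0.755).

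For the activity-regulated pair the difference was smaller in TBI without passing the adjustment. miR-132-5p had a TBI minus sham value of -0.49 ± 0.19 (SE, unadjusted p = 0.0186, adjusted p = 0.755) and miR-212-5p one of -0.71 (unadjusted p = 0.0279), while miR-132-3p had a TBI minus sham value of -0.24 (unadjusted p = 0.248). The oligodendrocyte arms had a median change of 0.02 over 5 arms, where miR-338-5p had a TBI minus sham value of -0.03 ± 0.19 (SE, unadjusted p = 0.860, adjusted p = 0.983). Without sham rat 55, 75 miRNAs had an unadjusted p below 0.05 and 1 passed the adjustment, miR-708-5p, at 0.97 (adjusted p = 0.0483).

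Reads of tRNA made up 12.9% ± 4.01 (SD, n = 6) of the small RNA table in TBI cortex and 13.3% ± 2.55 (SD, n = 6) in TBI thalamus. The share was higher in thalamus in 3 of 6 rats (exact sign-flip permutation test, two-sided, p = 0.875). Sham rats had 10.6% ± 2.87 and 11.9% ± 3.75 (p = 0.5, exact sign-flip permutation test), and the regional difference did not differ detectably between TBI and sham (exact permutation test, p = 0.745). With 6 pairs the smallest p is 0.03125.

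Single tRNA features, where they differed, were higher in the injured thalamus. Of 250 tRNA features in both regional tables, 16 were higher in thalamus (6.4%) and none in cortex (limma on log2(CPM + 1), adjusted p below 0.05 over 595 small RNA features; 11.9% and 5.21% of all 595). In sham rats 54 were higher in thalamus (21.6%) and none in cortex. The TBI count moved to 39 when the 12 TBI libraries were fitted alone, to 41 without sham rat 55, to 8 without TBI rat 45 or 63 and to 9 without TBI rat 24 or 56, so 16 and 54 are not to be read as a difference between TBI and sham. The lists shared 13 features (81.2% of the TBI list and 24.1% of the sham list). These CPM were scaled by library size, which gives lower cortical levels than TMM does. The median tRNA difference was -0.22 in TBI and -0.38 in sham, beside -0.08 and -0.35 for the miRNAs of the same tables. With TMM factors 8 features were called in TBI, all higher in thalamus, and 2 higher in cortex and 13 higher in thalamus in sham.

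The called features belonged to 10 anticodons, with 4 of AsnGTT and 2 each of TyrGTA, LeuTAG and GlyCCC. tRNA5177-LysTTT, which decodes lysine codons, had 20.5 to 32.7 CPM (median 23.5) in TBI cortex and 41.7 to 75.4 CPM (median 58.5) in TBI thalamus. The regions did not overlap, and the difference was -1.15 ± 0.21 (SE, adjusted p = 8.57e-04) in TBI and -0.94 ± 0.21 (SE, adjusted p = 0.00379) in sham. Sham levels were 3.39 to 12.2 CPM (median 5.46) in cortex and 7.16 to 17.6 CPM (median 13.1) in thalamus. With TMM factors it was -1.01 (adjusted p = 0.00127). Of 9 LysTTT features it was the only 1 called. Their sum differed by -0.36 ± 0.61 (SD, n = 6) and was higher in thalamus in 4 of 6 TBI rats (exact sign-flip permutation test, p = 0.25). tRNA6361-LeuAAG differed by -1.14 ± 0.24 (SE, adjusted p = 0.00284) and tRNA5097-LeuTAG by -0.94 ± 0.19 (SE, adjusted p = 0.00284). tRNA3877-ArgTCG, the only ArgTCG feature tested, had 7.08 to 22.0 CPM (median 16.8) in TBI cortex and 22.4 to 39.1 CPM (median 31.3) in TBI thalamus, without overlap, and differed by -1.06 ± 0.24 (SE, adjusted p = 0.00478). tRNA353-AsnGTT had 13.2 to 21.6 CPM (median 14.7) in TBI cortex and 26.1 to 39.7 CPM (median 30.9) in TBI thalamus, also without overlap, and differed by -1.02 ± 0.23 (SE, adjusted p = 0.00438) in TBI and -0.31 ± 0.23 (SE, adjusted p = 0.332) in sham. The change between TBI and sham did not pass for this or any other tRNA feature (limma, smallest adjusted p = 0.497).

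Some features singled out by name or by abundance did not pass. tRNA1652-IleAAT had 23.4 to 51.6 CPM (median 34.7) in TBI cortex and 38.9 to 95.97 CPM (median 53.0) in TBI thalamus and a difference of -0.76 ± 0.25 (SE, adjusted p = 0.0502). tRNA2846-AsnGTT had 96.6 to 187 CPM (median 125) in TBI cortex and 126.2 to 295 CPM (median 206) in TBI thalamus and a difference of -0.59 ± 0.29 (SE, adjusted p = 0.181). The most abundant feature, tRNA1668-GlyGCC, had 4146 to 11810.3 CPM (median 8534) in TBI cortex and 6778 to 10157 CPM (median 7992) in TBI thalamus and a difference of -0.03 ± 0.24 (SE, adjusted p = 0.958). The next, tRNA2163-GlyGCC and tRNA10828-GlyGCC, differed by -0.03 and 0.02, and reads of these copies could be counted for one another. No regional tRNA difference changed detectably with the injury (limma, 0 of 250 called, smallest adjusted p = 0.497, 11 at an unadjusted p below 0.05, and 0 called with 4 below 0.05 by edgeR on recovered reads).

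Summed over the features of an anticodon, 9 of 46 anticodons were higher in thalamus in 6 of 6 TBI rats and none in cortex. The smallest p was 0.03125, the smallest that 6 pairs allow (exact sign-flip permutation test), and the smallest adjusted p was 0.160 over 46 anticodons. HisGTG had a mean difference of -0.84 ± 0.65 (SD, n = 6), with medians of 2679 CPM in cortex and 4479 in thalamus. TyrGTA differed by -0.76 ± 0.43 and AsnGTT by -0.69 ± 0.47 (SD, n = 6). With TMM factors 5 anticodons were higher in thalamus in 6 of 6 rats. AsnGTT was among these, while HisGTG and TyrGTA were then higher in thalamus in 5 of 6 TBI rats. In sham rats, without TMM factors, HisGTG was higher in thalamus in 4 of 6, TyrGTA in 6 of 6 and AsnGTT in 5 of 6. Their sham mean differences were -0.43, -1.08 and -0.55. For no anticodon did the regional difference differ detectably between TBI and sham (exact permutation test, smallest adjusted p = 0.481). The largest sum, GlyGCC, differed by 0.02 ± 0.60 and was higher in cortex in 3 of 6 rats.

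**Figure D5:**
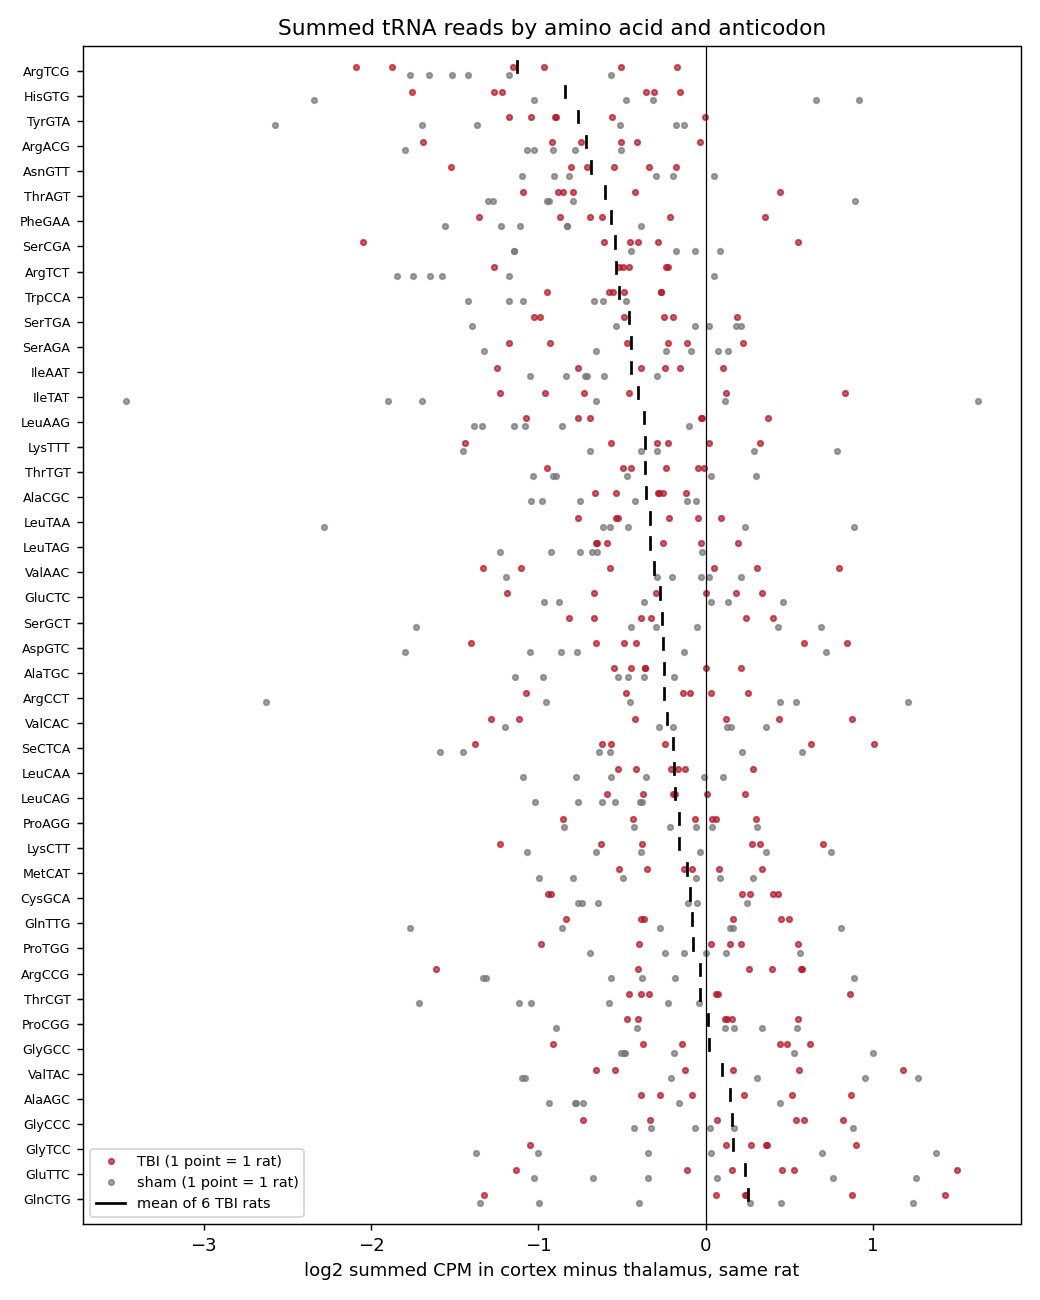
Difference between log2 summed CPM in cortex and in thalamus of the same rat (x axis) for 46 anticodons, TBI rats in red and sham rats in grey, with a bar at the mean of 6 TBI rats. The mean lies to the left of 0 for 38 of 46 anticodons in TBI rats, from -1.13 for ArgTCG to 0.25 for GlnCTG. These CPM were scaled by library size, and with TMM factors (not drawn) the mean lies to the left of 0 for 32 of 46.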

How the data were processed

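Small RNA was sequenced from perilesional cortex and ipsilateral thalamus, 1 library per region and rat (6 TBI and 6 sham rats). The authors trimmed adapters and mapped reads to the rat assembly RGSC3.4, with miRNAs annotated from miRBase. They deposited whole read counts per miRNA for each region (728 miRNAs in both tables, joined by name here). For tRNA features the authors deposited CPM per region, scaled by library size, of which 250 features were in both tables. Whole counts of tRNA features were there for cortex alone. The other deposited CPM tables, of miRNAs alone, were not used here. The members, lists and tests were chosen with earlier results of these data known.

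Counts of all 24 libraries were scaled together by TMM and tested with edgeR (version 4.0.16, R 4.3.3; filterByExpr by group, quasi-likelihood) in 1 model with the rat as a block, for cortex minus thalamus in TBI, in sham, for the difference of these and for their mean. Benjamini-Hochberg adjustment ran over the 407 miRNAs left, with a threshold of 0.05. SE is the absolute log2 difference divided by the square root of F. tRNA CPM were tested with limma (version 3.58.1, trend) on log2(CPM + 1) for features that reached 1 CPM in 6 or more libraries, adjusted over 595 shared small RNA features. The pseudocount of 1 understates differences of low features. Dividing CPM by the step of 1 read gave whole reads in 6228 of 6228 tRNA values (within 1e-06 reads), and these served only as an alternative. Shares and anticodon sums were compared by exact two-sided permutation tests. The edgeR and limma fits were tested on simulated data. Alternatives were DESeq2 (version 1.42.0), other scalings and filters, other pseudocounts, no rat block and leaving out each rat. The fit of tRNA features to the 12 TBI libraries alone was added after seeing the data.

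The rat number pairs the libraries of 1 animal. Deviations from the group means correlated between the regions of a rat at a median of 0.52 in TBI (0.28 to 0.62 over 6 rats) and -0.05 in sham. Between regions of different rats the median was -0.12 in TBI (-0.44 to 0.68) and -0.05 in sham (-0.47 to 0.58). In sham, regions of the same rat were thus no more alike than regions of different rats. Chi-square values between libraries of a group showed no library deposited more than once. In the tRNA CPM a single read was worth at most 1.62 CPM. A count of 0 there allows up to 4.87 CPM in the shallowest TBI library (3 reads), counting error only. The miRNA CPM leave out tRNA reads, and a read of that library was worth more in them. Named were the 10 largest called differences in each direction with the same sign in 6 of 6 TBI rats and a mean of at least 10 CPM in the higher region, the 6 smallest p of the difference, the 3 most abundant, and called list members. For tRNA features the rule was the 5 largest in each direction, the 3 most abundant and 3 fixed by name (tRNA1652-IleAAT, tRNA5177-LysTTT and tRNA2846-AsnGTT). Mature sequences were taken from RefSeq (GRCr8), where 27 of 27 miRNAs named by size, p or abundance and 369 of the 407 tested matched by name.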

Additional observations from a re-analysis of the deposited data

Results flagged for a closer look

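In 26 of 112 groups of 6 values examined, 1 library lay apart from the other 5 (gap to the nearest value over the range of the group above 0.625). For normally distributed values chance gives about 1 in 20 groups, or 5.6. CPM were used here without taking logs, so 5.6 is only a rough guide. Most of these values came from TBI rat 45, and the items are not independent of one another.

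In its thalamus, miR-1298 stood at 10514 CPM, miR-34c-5p at 5755 CPM, miR-448-3p at 602 CPM and miR-34b-3p at 180.5 CPM. miR-34c-3p was at 68.1 CPM, miR-448-5p at 42.8 CPM and miR-3552 at 41.4 CPM there. The summed choroid plexus and ependymal list was 31615 CPM, and the summed Hox-embedded list was 249 CPM. miR-133a-3p stood at 59.1 CPM, miR-483-3p at 39.9 CPM, miR-214-3p at 17.3 CPM and miR-483-5p at 10.9 CPM. In its cortex, miR-34c-5p was at 1109 CPM, miR-1298 at 920.5 CPM, miR-375-3p at 96.5 CPM, miR-483-3p at 81.9 CPM and miR-448-3p at 53.6 CPM. The summed choroid plexus and ependymal list was 4543 CPM and the summed epithelial list 311 CPM in that cortex.

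In the thalamus of rat 56, which had the fewest miRNA reads of the TBI libraries, miR-139-3p was at 240.0 CPM and tRNA6361-LeuAAG at 76.3 CPM. For rat 24, miR-190a-5p in thalamus was at 24.9 CPM, and tRNA353-AsnGTT and tRNA2846-AsnGTT in cortex were at 21.6 and 187 CPM. tRNA10828-GlyGCC was at 7867 CPM in the thalamus of rat 52.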

How the results depend on the processing

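The count of miRNAs that differed between injured cortex and thalamus, 131, ran from 96 to 150 over the alternatives in scaling, filter, block, tool and libraries that leave out no single rat, and from 107 to 167 without 1 rat, the highest without sham rat 55. It was 65 with a log2 difference of at least 1 as well. The 71 that were higher in cortex became 46 with library size scaling, and 46 to 93 without 1 rat (46 without TBI rat 24). The 94 shared with sham rats ran from 73 to 104, and from 80 to 98 without 1 rat. Without the rat block, 111 miRNAs were called, 108 of them among the 131, and 11 tRNA features. The count of miRNAs whose regional difference changed with the injury was 1 with no low-count filter, 0 to 1 without 1 rat (1 without sham rat 55) and 0 in the other fits. The 16 tRNA features became 8 with TMM factors, 39 in the 12 TBI libraries alone and 8 to 41 without 1 rat. The count was 8 without TBI rat 45 or 63, 9 without TBI rat 24 or 56 and 41 without sham rat 55. With pseudocounts of 0.5 and 5 it was 14 and 18, and with edgeR on recovered reads 11. The difference in tRNA share, -0.424 percentage points, ran from -1.56 to 0.899 without 1 rat, turning its sign without rat 52 or 63, and passed in none. The causes were not tested. For the features followed singly, 3606 of 3811 alternative fits kept the direction and side of the threshold or were not called in either fit, 108 lost the call, 97 gained one and none reversed. Depth limits low miRNAs such as miR-448-5p, with under 5 CPM in cortex.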

Other observations

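Regional differences varied less among TBI rats than among sham rats. The SD of the within-rat log2 difference had a median of 0.43 over 407 miRNAs in TBI and 0.57 in sham, and it was larger in TBI for 109 of the 407. The shallowest thalamic libraries were close in depth, with 523298 miRNA reads in sham (rat 55) and 538194 in TBI (rat 56). The part of depth, or of single rats such as sham rat 55, in this was not tested.

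Several host genes held more than 1 tested miRNA and gave differences of 1 direction in TBI rats. Both arms of miR-873, in the gene Lingo2 of a neuronal membrane protein, were higher in cortex, at 1.35 for miR-873-3p and 1.06 for miR-873-5p. Both arms of miR-153, in the dense-core vesicle gene Ptprn2, were higher in cortex, at 0.84 and 1.01. Both arms of miR-330, in the gene Eml2, were higher in thalamus, at -0.75 and -0.64. miR-221-3p and miR-222-3p, which share a seed and lie next to each other on the X chromosome, were higher in cortex by 1.13 and 1.10. These were named after their values were seen.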
